A study of Mus musculus with 6 samples.

Results

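Peroxisomal fatty acid oxidation was followed through 9 genes of mouse liver, Abcd2, Abcd3, Ehhadh, Hsd17b4, Acaa1a, Acaa1b, Eci2, Crot and Pex11a, out of 12393 genes with a probe set that the platform annotation assigns to 1 symbol. All probe sets assigned to exactly 1 of these symbols were taken, which gave 17, of which 12 lie on all 6 arrays and 5 only on the larger array design used at week 4. C57BL/6J mice, an inbred strain, were fed a high-fat or a control diet, and liver RNA was put on Affymetrix arrays at weeks 2, 4 and 10, with 1 array for each diet and week. The groups are therefore high-fat liver at weeks 2, 4 and 10 and control liver at weeks 2, 4 and 10, all from the same strain with no genetic change named. The composition of the diets, the sex and age of the mice, and the number of mice behind an array are not stated in the labels. The study set the diets against each other at each time to screen the hepatic response, with enzymes of lipid metabolism in view.

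Peroxisomes shorten fatty acids that mitochondria handle poorly, above all very long and branched chains. ABC transporters of the peroxisomal membrane bring in the acyl-CoAs, oxidases start the cycle, a bifunctional enzyme carries out the hydratase and dehydrogenase steps, and a thiolase releases acetyl-CoA, after which shortened chains leave as carnitine esters. In rodent liver many of these genes are classical targets of the nuclear receptor PPARalpha, which binds DNA with RXR at repeats of the element AGGTCA and responds to fatty acids and fibrates.

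The promoters of 3 of the genes are shown because Ehhadh had the largest week 10 difference among the brightest probe sets of the 9 genes and because the sister thiolase genes Acaa1a and Acaa1b are read in part by shared probe sets while their upstream sequences are separate. Each window runs from 250 bases before to 50 bases after the RefSeq start site (GRCm38.p6) and reads 5′ to 3′ on the gene's strand, with CG dinucleotides in capitals. The windows are chr16:21787785-21788084 on the minus strand for Ehhadh, chr9:119341044-119341343 on the plus strand for Acaa1a and chr9:119157044-119157343 on the minus strand for Acaa1b.
Ehhadh: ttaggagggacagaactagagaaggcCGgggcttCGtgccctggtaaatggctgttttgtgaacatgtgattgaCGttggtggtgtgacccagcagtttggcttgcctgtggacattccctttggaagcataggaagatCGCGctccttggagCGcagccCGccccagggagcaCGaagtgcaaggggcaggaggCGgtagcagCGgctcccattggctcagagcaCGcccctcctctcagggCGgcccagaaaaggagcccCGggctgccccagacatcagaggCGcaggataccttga
Acaa1a: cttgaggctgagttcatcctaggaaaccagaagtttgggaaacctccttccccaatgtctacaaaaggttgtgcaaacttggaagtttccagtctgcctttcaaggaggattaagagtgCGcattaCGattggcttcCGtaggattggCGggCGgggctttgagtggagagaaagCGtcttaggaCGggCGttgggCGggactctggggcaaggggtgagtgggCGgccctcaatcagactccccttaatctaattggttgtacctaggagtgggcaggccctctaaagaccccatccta
Acaa1b: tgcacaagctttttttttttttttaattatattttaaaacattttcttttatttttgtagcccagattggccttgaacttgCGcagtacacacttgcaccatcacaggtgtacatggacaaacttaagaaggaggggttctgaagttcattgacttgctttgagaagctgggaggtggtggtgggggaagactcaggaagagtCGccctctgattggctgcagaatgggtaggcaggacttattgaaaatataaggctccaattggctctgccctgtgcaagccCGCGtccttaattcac

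These windows hold 14 CG dinucleotides in Ehhadh, 10 in Acaa1a and 4 in Acaa1b, where the median of 32851 mouse windows of this length is 7. RefSeq windows were at hand for 7 of the 9 genes, 8 windows in all. AGGTCA, or TGACCT on the other strand, was found in 0 of the 8, against 16.3% of all windows. The repeat with 1 free base between a pair of such elements was found in 0 of the 8 and in 0.0396% of all windows. This says only that these letters are not in these windows.

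Signals below are linear intensities after each array was centred, and differences are high-fat minus control on the log2 scale. The arrays differed in technical measures. As deposited, before centring, the spiked-in bioD and cre signals were lower on the high-fat array in every week. The control array of week 2 had been scaled to a trimmed mean near 800, against near 500 for the other arrays. The week 2 gap therefore holds that scaling, and deposited spike signals of that week are not on 1 scale. For bioD they were 3822, 9363 and 5891 on the high-fat arrays of weeks 2, 4 and 10, against 5004, 13606 and 21253 on control. For cre they were 20202, 33698 and 37905, against 34694, 52275 and 60895. With 1 array per diet and week, the spike difference of weeks 4 and 10 cannot be told apart from diet. The control array of week 10 stands apart on bioD. The 3′/5′ ratio of beta-actin, a sign of RNA integrity, was 1.61, 2.35 and 1.17 on the high-fat arrays of weeks 2, 4 and 10, against 1.20, 2.15 and 1.73 on the control arrays, so its direction turned at week 10. That of pyruvate carboxylase was wider apart, at 9.64, 7.78 and 2.39 on high-fat against 3.82, 4.26 and 4.01 on control. For Gapdh it was 1.01, 0.81 and 0.83 against 0.78, 0.82 and 0.91. Hepatocyte markers, among them Alb (albumin), were well above the floor and lower on high-fat for 6, 9 and 9 of 9 in weeks 2, 4 and 10. Of the 884 brightest genes, 53.3%, 82.0% and 57.8% were lower in these weeks. The median differences of the markers were -0.13, -0.84 and -0.48. Their summed signals were 294980, 219477 and 416600 on high-fat, against 327981, 398654 and 557456 on control. In bulk liver, fewer cells of a type and less RNA per cell cannot be told apart. These markers are also bright, and the 884 brightest genes tested had a median of -0.32 at week 4. The part of brightness in the marker differences was not tested.

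Over the 3 weeks, none of the 9 peroxisomal oxidation genes passed the test for a diet difference. All 9 were above the floor, a signal of 155.3, on every array and were tested in limma with week as a block (adjusted p of 0.995 to 0.999 after Benjamini-Hochberg over 8846 genes). Of all genes tested, 0.0113% passed, which is 1 gene and none of the 9. At an unadjusted p under 0.05 there were 0 of the 9, against 4.08% of all genes. Mean differences ran from -0.30 for Abcd2 to 0.39 for Acaa1a. The 95% interval was -0.77 to 0.17 for Abcd2 and -0.09 to 0.88 for Acaa1a, and both reach past 1.5-fold (0.58 in size) at one end. The tests rest on the spread between weeks, which holds time, animals and technique together. limma moderates each gene's spread with that of all genes tested. The p-values and intervals therefore do not measure a gene's own spread alone.

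**Figure D1:**
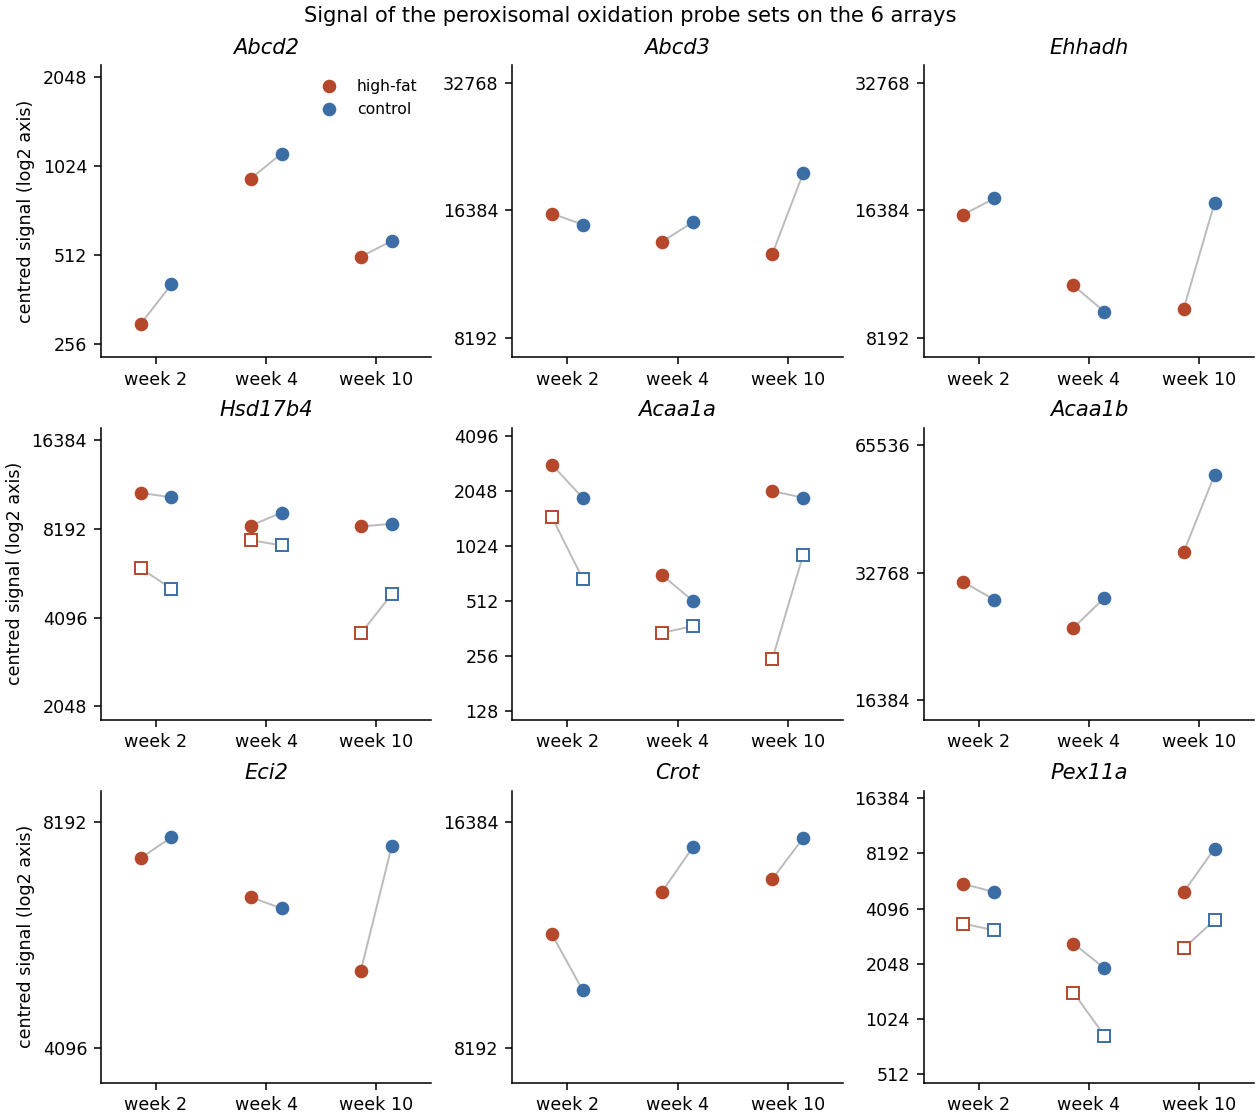
Centred signal (log2 axis, a scale per panel) of each gene's probe sets on the 6 arrays, high-fat left of control within each week and joined by a line, with filled circles for the brightest probe set and open squares for a second one. At week 10 Ehhadh, Abcd3, Acaa1b and Pex11a lie lower on the high-fat array, and the 2 probe sets of Acaa1a part there, at 0.12 and -1.89 on the log2 scale.

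The importers gave different pictures. Abcd3, the abundant membrane transporter of peroxisomes, had signals of 16080, 13799 and 12893 on the high-fat arrays of weeks 2, 4 and 10, against 15150, 15350 and 20015 on the control arrays. The diets lay close at the first weeks and parted at week 10, where the difference was -0.63, a signal 1.55-fold lower on the high-fat array. Abcd2, its relative for very long unsaturated chains, had 298, 928 and 505 on the high-fat arrays of weeks 2, 4 and 10, against 406, 1129 and 570 on the control arrays. Its differences of -0.44, -0.28 and -0.17 were all below 0, the one such case among the 9. Of all genes, 11.3% were lower at all 3 weeks, but a gene at the floor on both arrays of a week cannot count there. On the week 4 design, another 2 Abcd2 probe sets above the floor had differences of -0.11 and -0.44. The other Abcd2 probe set there and the extra ones of Abcd3 and Crot were at the floor on both arrays and give no difference.

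Ehhadh, the bifunctional enzyme that is a textbook marker of PPARalpha activity in rodent liver, had signals of 15999, 10879 and 9581 on the high-fat arrays of weeks 2, 4 and 10, against 17457, 9433 and 17027 on the control arrays. Its differences were -0.13, 0.21 and -0.83, and the week 10 signal was 1.78-fold lower on the high-fat array. The mean difference was -0.25 ± 0.53 (SD over 3 weeks), smaller than its spread. Hsd17b4, the other bifunctional enzyme, which serves branched chains and bile acid precursors, had 10859, 8401 and 8350 on the high-fat arrays of weeks 2, 4 and 10, against 10480, 9293 and 8518 on the control arrays. It had the narrowest spread of the 9, with differences of 0.05, -0.15 and -0.03 (SD 0.10). Its 95% interval of -0.50 to 0.42 comes from the moderated standard error of 0.21. A dimmer Hsd17b4 probe set had 0.23, 0.06 and -0.44.

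The thiolases, which cleave the ketoacyl-CoA, were read by probe sets that do not all tell them apart. Acaa1b had 31186, 24327 and 36681 on the high-fat arrays of weeks 2, 4 and 10, against 28336, 28600 and 55847 on the control arrays. Its differences of 0.14, -0.23 and -0.61 place the high-fat array 1.52-fold lower at week 10. Acaa1a on its brighter probe set had 2838, 709 and 2038 on the high-fat arrays of weeks 2, 4 and 10, against 1872, 513 and 1876 on the control arrays. Here the differences of 0.60, 0.46 and 0.12 were all above 0, where 8.16% of all genes were higher at all 3 weeks. Genes at the floor on both arrays of a week cannot count in that share either. The dimmer Acaa1a probe set disagreed, with 1471, 344 and 246 on the high-fat arrays of weeks 2, 4 and 10, against 677, 373 and 912 on the control arrays. Its differences were 1.12, -0.12 and -1.89, opposite in sign to the brighter probe set at weeks 4 and 10. The gap of 2.01 between the Acaa1a probe sets at week 10 was beyond that of most genes, since over 2635 genes with 2 probe sets the median gap was 0.43 and the 90th percentile 1.11. A pair of probe sets assigned to both thiolase genes, which the choice of members leaves out, had 0.33, 0.06 and -0.30 on one and 0.12, -0.06 and -0.05 on the other. With the mean of both its probe sets, Acaa1a had a mean difference of 0.049 in place of 0.39 and a week 10 difference of -0.89, which makes 9 of 9 genes lower and 5 at least 1.5-fold lower in that week. The direction of Acaa1a is therefore uncertain.

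Eci2, an isomerase that moves double bonds so that unsaturated chains can enter the cycle, had 7331, 6504 and 5193 on the high-fat arrays of weeks 2, 4 and 10, against 7811, 6285 and 7600 on the control arrays. It differed little at the first weeks (-0.09 and 0.05) and by -0.55 at week 10, just inside the 1.5-fold line. Crot, the carnitine octanoyltransferase that readies shortened chains for export, had 11609, 13235 and 13749 on the high-fat arrays of weeks 2, 4 and 10, against 9777, 15166 and 15578 on the control arrays. Its differences of 0.25, -0.20 and -0.18 stayed small and changed sign. Pex11a, a membrane protein that elongates and divides peroxisomes, had 5590, 2642 and 5039 on the high-fat arrays of weeks 2, 4 and 10, against 5047, 1941 and 8714 on the control arrays. High-fat signals exceeded control signals in weeks 2 and 4 (0.15 and 0.44) and were 1.73-fold lower in week 10 (-0.79). The dimmer Pex11a probe set gave the same signs, at 0.12, 0.78 and -0.51, and its week 4 signals were 1427 on the high-fat and 832 on the control array.

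Week by week, the 9 genes were spread around 0 at weeks 2 and 4 and lay mostly below 0 at week 10. At week 2, 3 of 9 were lower on high-fat, where 53.7% of all genes and 53.3% of the 884 brightest genes were. Acaa1a alone was 1.5-fold or more higher (6.83% of all genes and 3.73% of the brightest), and 0 were 1.5-fold or more lower (8.79% and 3.39%). The median was 0.09, against -0.03 over all genes. At week 4, 5 of 9 were lower on high-fat, where 46.2% of all genes and 82.0% of the brightest were. Of all 8846 genes, 4083 were lower and 3029 higher. The rest, at the floor on both arrays, had a difference of 0 and dilute the shares and the median of all genes. In that week 0 of 9 were 1.5-fold or more higher (3.87% of all genes and 1.02% of the brightest) and 0 as much lower (6.66% and 20.4%). The median was -0.15, against 0 over all genes. Bright genes were lower on the high-fat array of that week, with a median of -0.32 over the 884 brightest genes, among which 7 of the 9 lie. After loess on brightness the week 4 median of the 9 was 0.32, and under quantile normalization 0.38, so its sign turned. Under each of these 1 of 9 was lower in week 4, and under quantile normalization Acaa1b was at least 1.5-fold higher (0.66).

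At week 10, 8 of 9 were lower on the high-fat array, where 47.2% of all genes and 57.8% of the 884 brightest were lower. The 4 at least 1.5-fold lower were Ehhadh, Pex11a, Abcd3 and Acaa1b (12.7% of all genes and 13.0% of the 884 brightest), and 0 were 1.5-fold higher (13.5% and 5.09%). The median of the 9 was -0.55, against 0.02 over all genes and -0.08 over the 884 brightest. Ehhadh and Pex11a stayed at least 1.5-fold lower after loess on brightness (-0.70 and -0.74) and under quantile normalization (-0.64 and -0.69). Abcd3 and Acaa1b did not, at -0.48 and -0.32 after loess and -0.40 and -0.16 under quantile normalization, and the median of the 9 was -0.32 and -0.24. Week 10 has 1 array per diet, so these sizes have no replicate check. The control array of that week is the one that stands apart on its spiked-in bioD signal. The 9 hepatocyte markers were all lower on the high-fat array (median -0.48). Of the macrophage markers, 12 of 12 were higher (median 0.73, summed signal 26127 on the high-fat and 15403 on the control array), where 4564 of all 8846 genes were higher. The part of these in the result was not tested.

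**Figure D2:**
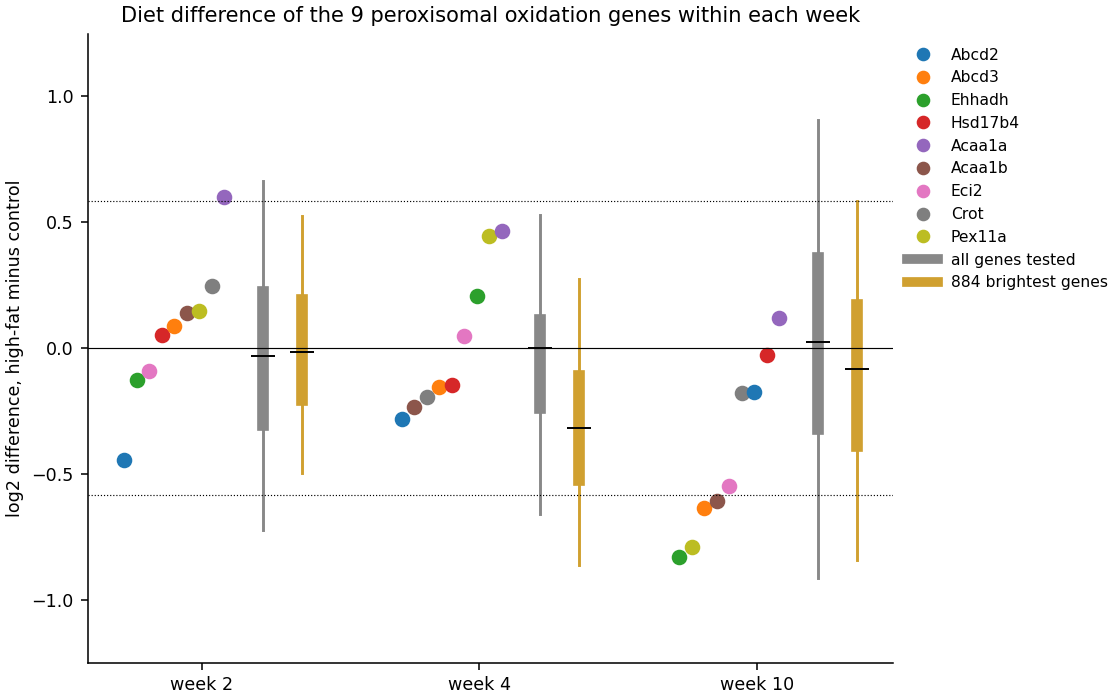
Log2 difference, high-fat minus control, of the 9 genes within each week (dots), beside the spread of all 8846 genes tested and of the 884 brightest (thick bar 25th to 75th percentile, thin line 5th to 95th, tick the median), with dotted lines at 1.5-fold. At week 10, 4 of the 9 lie below the lower dotted line and the median of the 9 is -0.55.

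Between weeks 2 and 10, which share the smaller array design, the median difference of the 9 genes was below 0 on the high-fat diet and above 0 on the control diet. On the high-fat diet 6 of 9 were lower at week 10 than at week 2, where 43.1% of all genes and 47.5% of the 884 brightest were, with a median of -0.32 (0.09 over all genes and 0.04 over the brightest). Ehhadh was at least 1.5-fold lower, at -0.74 (13.2% of all genes), and Abcd2 at least 1.5-fold higher, at 0.76 (19.7%). On the control diet 6 of 9 were higher at week 10, where 51.3% of all genes and 58.1% of the 884 brightest were, with a median of 0.40 (0.01 over all genes and 0.07 over the brightest). Acaa1b at 0.98, Pex11a at 0.79 and Crot at 0.67 were at least 1.5-fold higher (11.8% of all genes), and 0 were at least 1.5-fold lower (9.57%). For Ehhadh and Eci2 the control signals of the 2 weeks were nearly equal (-0.04 for both) and the high-fat signals differed (-0.74 and -0.50). For Acaa1b, Pex11a and Abcd3 the control array of week 10 was the higher one, by 0.98, 0.79 and 0.40, and the high-fat arrays differed by 0.23, -0.15 and -0.32. These comparisons use the same arrays as the diet differences of weeks 2 and 10 and have 1 array per group.

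**Figure D3:**
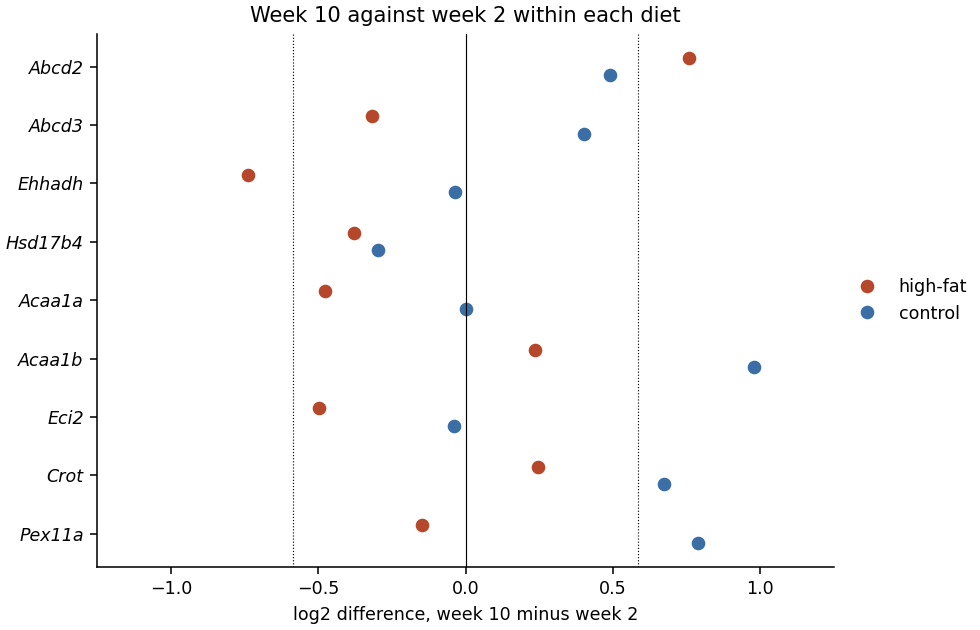
Log2 difference, week 10 minus week 2, of each gene within the high-fat diet (red, upper dot) and the control diet (blue, lower dot), with dotted lines at 1.5-fold. The median of the 9 is -0.32 on the high-fat diet and 0.40 on the control diet, against 0.09 and 0.01 over all genes. A high-fat dot left of its control dot means only that the diet difference was lower at week 10 than at week 2. The order of the dots is therefore not a separate result.

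Other genes of peroxisomal oxidation and import had a week 10 median near 0, and whether that differs from the 9 was not tested. Of 18 such genes listed, 16 had a probe set with 1 symbol and all 16 were tested, with 0 passing over the 3 weeks. Their medians were 0.04, -0.17 and -0.06 at weeks 2, 4 and 10. In week 10, 12 of 16 were lower (47.2% of all genes and 57.8% of the 884 brightest). At least 1.5-fold lower were 3 of them (12.7% and 13.0%), with 1 as much higher (13.5% and 5.09%). Decr2, a reductase for unsaturated chains, had signals of 4836, 3108 and 2476 on the high-fat arrays of weeks 2, 4 and 10, against 5374, 4419 and 6563 on the control arrays. The differences of Decr2, -0.15, -0.51 and -1.41, were all below 0. Hacl1, which cleaves hydroxylated and branched chains, had differences of -0.82, -0.54 and 0.01, and Acox3, an oxidase for branched chains, at least 0.26 at week 2 and 0.89 at week 10, with both arrays at the floor in week 4.

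Genes for building peroxisomes had medians near 0. Of 15 listed, 10 had such a probe set and were tested, with medians of 0.09, -0.11 and 0.15 and 0 passing. Pex26, which anchors the import machinery, was higher at each week, by 0.37, 0.38 and 0.56, while Pex19, a chaperone of peroxisomal membrane proteins, had 0.14, -0.04 and 0.62 and Pex16, its partner in membrane assembly, 0.11, -0.46 and -0.29. Other peroxisomal proteins, 13 tested of 15, had medians of -0.01, -0.45 and 0.00 with 0 passing. In week 4, 10 of these 13 were lower, where 46.2% of all genes and 82.0% of the 884 brightest were. At least 1.5-fold lower were 4 of the 13 (6.66% of all genes and 20.4% of the brightest). Catalase, Cat, which removes the hydrogen peroxide made by the oxidases, had -0.01, -0.61 and -0.48, Idh1, a source of NADPH, 0.61, -0.09 and 0.50, and Lonp2, a protease of the matrix, -0.06, 0.16 and 0.56.

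The list of PPARalpha and partners, which also holds LXRalpha (Nr1h3), had 7 of 7 tested with 0 passing. Its medians were 0.13, 0.33 and -0.54. In week 10, 6 of 7 were lower with high-fat feeding (47.2% of all genes), 2 of them 1.5-fold or more (12.7%). The median was near the -0.55 of the 9 oxidation genes. Ppara itself, named here after its values were seen, had signals of 4049, 2858 and 3583 on the high-fat arrays of weeks 2, 4 and 10, against 2891, 2169 and 5193 on the control arrays. Its differences were 0.49, 0.40 and -0.54. Nr1h3, the oxysterol receptor LXRalpha, had -0.01, -0.43 and -0.35, the Mediator subunit Med1 had -0.43, 0.33 and -0.62, and Ppargc1a, a coactivator of fasting, 0.40, 0.09 and 0.18. Other target genes of the receptor, 17 tested of 20 with 0 passing, had medians of 0.08, 0.09 and -0.25. In week 10, 12 of 17 were lower (47.2% of all genes and 57.8% of the 884 brightest). At least 1.5-fold lower were 4 of them (12.7% and 13.0%), and 1 was as much higher (13.5% and 5.09%). Pdk4, a brake on glucose oxidation, had -1.01, 0.09 and -1.94, the fasting hormone Fgf21 -0.35, 0.86 and -2.39, and the pantetheinase Vnn1 0.03, 0.86 and 0.57. The Fgf21 values of weeks 4 and 10 have 1 array at the floor, so they are lower bounds in size.

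**Figure D4:**
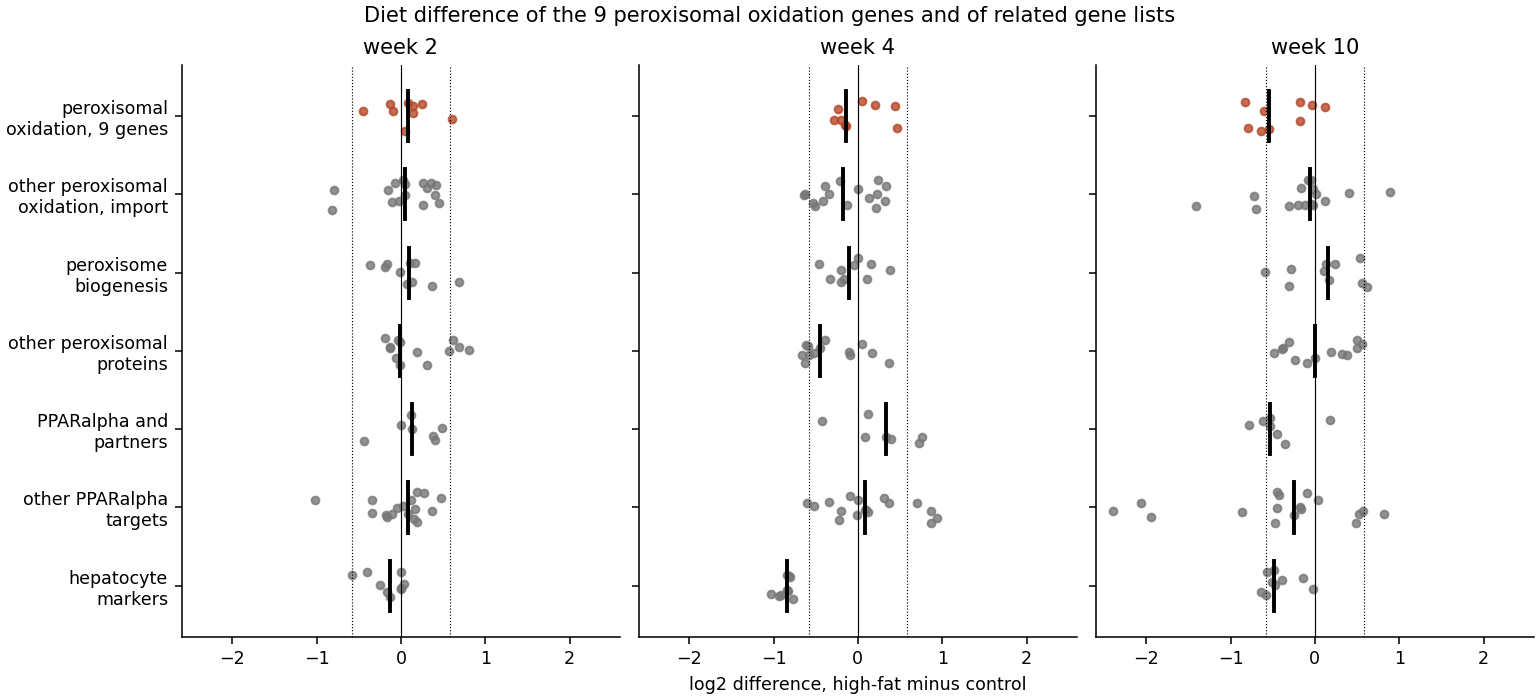
Log2 difference, high-fat minus control, of single genes (dots) in the 9 peroxisomal oxidation genes (red) and 6 related lists (grey) at weeks 2, 4 and 10, with the list median as a black bar and dotted lines at 1.5-fold. At week 10 the medians are -0.55 for the 9 genes, -0.54 for PPARalpha and partners and -0.48 for hepatocyte markers. They are -0.25 for other PPARalpha targets and -0.06 for other peroxisomal oxidation and import genes. Other peroxisomal proteins have 0.00 and peroxisome biogenesis 0.15.

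The genes whose 3 weekly differences lay nearest to those of Ehhadh, among 6051 above the floor on all 6 arrays, were Wwtr1, Plxnd1, Rasgrf1, Ssr1 and Trim25, at Euclidean distances of 0.05, 0.06, 0.07, 0.10 and 0.10 on the log2 scale. Of the other 8 oxidation genes, Eci2 was nearest, at a distance of 0.32 and rank 114, followed by Pex11a at 0.37 and rank 172 and Abcd3 at 0.46 and rank 350. The others were farther, with Acaa1b at rank 605, Crot at 1904, Abcd2 at 2034, Hsd17b4 at 2129 and Acaa1a at 4035. The likeness rests on 3 values per gene.

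Beside the 9 genes, markers of other cells in the liver were read. Summed signals of 12 macrophage markers were 20505, 33327 and 26127 on the high-fat arrays of weeks 2, 4 and 10, against 22683, 34173 and 15403 on the control arrays, so the gap of week 10 was not seen before it. For 8 stellate cell markers the sums were 11747, 15429 and 12173 on the high-fat arrays of weeks 2, 4 and 10, against 13913, 15377 and 8545 on the control arrays. Median differences at week 10 were 0.47 for 6 B cell and neutrophil markers, 0.32 for the 8 stellate cell markers, 0.44 for 5 endothelial markers and 0.71 for 3 pancreatic acinar markers. Summed over the 9 genes with a probe set in each list, tested or not, the weekly signal ran from 2018 to 3538 on high-fat and from 1754 to 2363 on control for the lymphocyte and neutrophil list, and from 3413 to 4757 on high-fat and from 2739 to 4136 on control for the endothelial and cholangiocyte list. Adipocyte markers Adipoq and Lep, the lymphocyte markers Cd3e, Cd3g and Nkg7 and the cholangiocyte markers Krt7, Krt19, Epcam and Sox9 were not above the floor on 3 arrays. Of 10 clock genes, 5 were higher and 5 lower by 1.5-fold or more in week 10 (13.5% and 12.7% of all genes). The labels do not give the hour at which livers were taken. The part of these in the differences of the oxidation genes was not tested.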

How the data were processed

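Both deposited tables hold linear intensity for each probe set; the labels name no summarization software. Per the labels' protocols, biotin-labelled cRNA was made from total liver RNA. From the values, the authors had scaled each array to a trimmed mean near 500, and near 800 for the control array of week 2. No depth applies to arrays, and their number limits the precision.

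Values were put on the log2 scale, arrays were centred on the median of the shared probe sets that lie over the floor on all arrays, and values under the pooled 40th percentile, a signal of 155.3, were set to it. The 22626 shared probe sets left after 64 controls gave 12393 genes, each by its brightest probe set with 1 symbol. For 20351 of the 20380 probe sets with 1 symbol, the symbol was the one RefSeq gives for the gene identifier, whether or not it differed. The 8846 genes over the floor on 3 or more arrays were fitted in limma 3.58.1 (R 4.3.3) with week as a block, Benjamini-Hochberg adjusted at 0.05, by a script tested on simulated data. Single weeks have no test, and 1.5-fold is a size only. Of related lists, the 3 genes with the largest mean difference are named, any 1.5-fold in 1 direction at 2 weeks, and the 5 nearest to Ehhadh. The genes and lists were chosen with earlier results of these data known. Loess used a span of 0.3 (statsmodels 0.14.6). Figures were drawn with matplotlib 3.10.9.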

Additional observations from a re-analysis of the deposited data

How the results depend on the processing

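None of the 9 genes passed under any of 13 alternatives (adjusted p from 0.602 to 1, mean differences from -0.49 to 0.53), of which loess on brightness was added after the data were seen. The number of all genes passing was 7 with the values as deposited, 2 with each probe set as its own feature, 6 to 7 with 1 week left out, and 0 under quantile normalization, the 60th percentile floor, without a filter, without the week block and with the mean of a gene's probe sets. Signs of mean differences turned as follows, and the cause was not tested. Under quantile normalization Hsd17b4 had 0.11, Acaa1b 0.26, Abcd3 0.037 and Crot 0.18, and after loess Hsd17b4 had 0.11, Acaa1b 0.10 and Crot 0.17. With 1 week left out, the means ran from -0.48 to 0.04 for Ehhadh, from -0.087 to 0.011 for Hsd17b4, from -0.188 to 0.034 for Crot and from -0.32 to 0.30 for Pex11a, highest without week 10 for Ehhadh and Pex11a. The mean of both Pex11a probe sets gave 0.032, and 0.611 at week 4, the one gene at least 1.5-fold higher there. In deposited values, which keep the higher scaling of the control array of week 2, all 9 were lower at week 2, 4 of them 1.5-fold or more, with a median of -0.58 against -0.67 over all genes, and Acaa1a had -0.068. Among the brightest probe sets of the 9 genes, Abcd2 came nearest to the floor of 155.3, with a lowest signal of 298. The dimmer Acaa1a probe set came nearer, at 246 on the high-fat array of week 10.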
